A study of Mus musculus with 10 samples.

Results

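The comparison set lung fibroblasts against ear fibroblasts of the mouse at 0 h, the earlier of the sampling times of a post-mortem series. It used 2 lung libraries and 3 ear libraries taken at 0 h, numbered here as the labels number them (lung 1 and 2, ear 1 to 3). The genes compared were those at 1 TPM or more in at least 2 of these 5 libraries, and 12730 of the 22594 genes in the table met that rule. The labels give cell type, tissue, time, the post-mortem condition and a replicate number. They give no strain, age, sex, genotype, agent or passage, and they do not say that libraries of a group came from separate animals, so every p measures only the spread between these libraries, part of which may be technical.

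The values were TPM, which the authors computed. TPM gives each transcript as a share of the whole library, corrected for its length and put on a fixed total, so levels of different genes can be compared, but the number of reads behind a value is unknown. Fold changes below are lung minus ear on the log2(TPM + 1) scale, where the added 1 shrinks differences between low values. A gene was called where the adjusted p of limma's test was under 0.05.

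Fibroblasts build, repair and turn over the matrix of connective tissue. They keep a record of where in the body they arose as a stable set of transcription factor genes, among them Hox genes, which mark position along the body axis, and T-box, forkhead and homeobox genes that are used locally in the embryo. Lung mesenchyme arises around the gut tube and supports branching airways, while the connective tissue of the external ear forms with the skin and cartilage of the head, partly from neural crest.

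The fibroblast genes Col1a2, Pdgfra and Vim were at 70.6 TPM or more in all 5 libraries. Other fibroblast genes, among them Dpt and Thy1 described below, were far lower in lung than in ear. The libraries of a tissue were not equally alike. Col1a2, a fibrillar collagen gene, was at 345 and 1358 TPM in lung, against 1476, 1722 and 876 TPM in ear. Pdgfra, a receptor gene of mesenchymal cells, was at 70.6 and 247 TPM in lung, against 423, 188 and 197 TPM in ear, and Vim, an intermediate filament gene, was above 1000 TPM in each library. Ear 1 stood apart from the other ear libraries. Among 7847 genes averaging 10 TPM or more in ear, 567 and 613 differed by at least 2-fold between ear 1 and ear 2 or ear 3, against 150 between ear 2 and ear 3, and 353 of 7607 genes did so between the lung libraries. Adipocyte genes were among the widest of these differences: Fabp4, which encodes a fatty acid carrier of fat cells, was at 2070.0, 65.9 and 107 TPM in ear 1, 2 and 3. In lung, the widest were Apod, at 2.05 and 110.0 TPM in lung 1 and 2, and the chemokine gene Ccl11, at 0.820 and 43.05 TPM. The Y-linked gene Ddx3y was at 0 and 53.3 TPM in lung 1 and 2 and 0, 52.4 and 0.0172 TPM in ear 1, 2 and 3, so lung 2 and ear 2 alone carried male transcripts at this level.

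Of the 12730 genes, 1486 (11.7%) were called, 795 (6.25%) higher and 691 (5.43%) lower in lung. At a change of 2-fold or more these counts were 696 and 543, and at 8-fold or more 172 and 102. The median log2 fold change over all genes tested was -0.082. Both lung libraries lay above all 3 ear libraries for 2245 genes (17.6%) and below them for 3279 (25.8%), and each of the 1486 called genes was among these. When each library was left out in turn, 467 genes kept their call in all 5 fits, 273 of them higher and 194 lower, and where a gene named below lost its call in such a fit, the library and the value without it are given. Of the genes tested, 385 were under 1 TPM in all ear libraries and 461 under it in both lung libraries. Such genes passed the level filter through 1 tissue alone, so the filter largely fixes their direction, and the counts of gene lists below describe these libraries only. Each list count is to be set beside the 6.25% called higher and 5.43% called lower over all genes tested, and some lists lie near these shares.

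**Figure D1:**
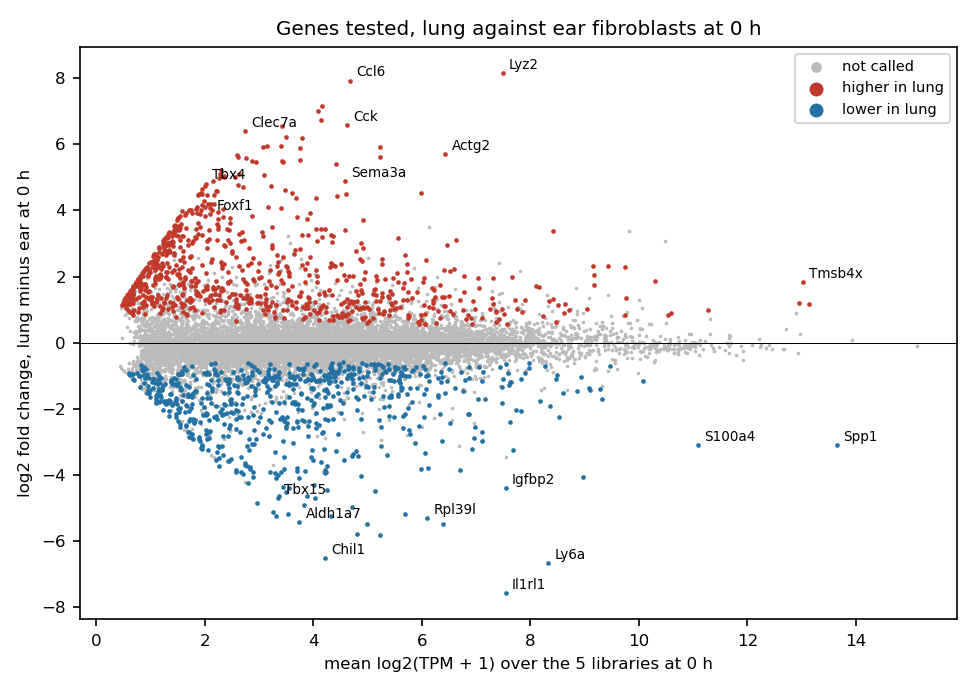
Each point is 1 of 12730 genes, with its mean log2(TPM + 1) over the 5 libraries at 0 h across and its log2 fold change, lung minus ear, up the page. Red points are the 795 genes called higher in lung and blue points the 691 called lower, and Lyz2 at 8.16 and Il1rl1 at -7.58 lie at the ends.

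Most Hoxa and Hoxb genes tested were present in lung and near 0 in ear. Hoxa5, whose loss in mice disturbs lung and airway development, was at 14.7 and 14.7 TPM in lung, against 0, 0 and 0 TPM in ear (adjusted p = 2.50e-05). Hoxb6 was at 14.3 and 12.5 TPM in lung, against 0, 0.0453 and 0 TPM in ear (log2 change 3.83 with SE 0.27, adjusted p = 4.60e-05). No ear library came near a lung library for either gene. Hoxb2, the most anterior Hoxb gene tested, was at 14.3 and 13.7 TPM in lung, against 0.680, 0.465 and 0.603 TPM in ear (log2 change 3.25 with SE 0.20, adjusted p = 2.73e-05), so ear kept a low level at that end of the cluster.

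Along each cluster the pattern had edges. In the Hoxa cluster, Hoxa3 to Hoxa7 were called higher in lung and Hoxa2 was not called. Hoxa2, a gene of the hindbrain and of the arches that form the outer ear, was at 3.02 and 4.42 TPM in lung, against 7.17, 8.04 and 7.85 TPM in ear (adjusted p = 0.114), so the lung values were lower but the difference was not called. It was called with the 5 libraries at 0 h alone (-0.896) and with array weights (-0.94). Hoxa4, Hoxa5 and Hoxa6 were listed at 0 in all 3 ear libraries. The Hoxa3 call was lost without lung 2 (2.42). Of 10 Hoxb genes, 7 were tested and all 7, Hoxb2 to Hoxb8, were called higher in lung. The Hoxb genes summed to 63.03 and 63.4 TPM in the lung libraries, against 0.835, 0.895 and 0.823 TPM in the ear libraries. Beyond these edges Hoxa9 to Hoxa13, Hoxb9 and Hoxb13 did not pass the level filter, and Hoxb9 reached only 0.572 and 1.25 TPM in lung, against 0, 0.118 and 0.0524 TPM in ear. None of 9 Hoxc genes passed it. Of 9 Hoxd genes only Hoxd8 did, and it ran the other way, at 0.257 and 0.267 TPM in lung, against 4.28, 2.33 and 1.32 TPM in ear (log2 change -1.45 with SE 0.32, adjusted p = 0.0197), a call lost without lung 1 (-1.44) or lung 2 (-1.45) and with the 5 libraries at 0 h alone (-1.45). Genes near 0 in a tissue entered the test only through the other, which fixes most of their direction, so the counts in these small families describe levels and carry no further weight.

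Several T-box genes were present in 1 tissue and low in the other. Of 7 tested, 4 passed the level filter through lung alone and 2 through ear alone, which largely fixes their direction. The 1 other was not called. Tbx4, which is used in lung and hindlimb mesenchyme, was at 22.3 and 37.7 TPM in lung, against 0.135, 0 and 0.0781 TPM in ear (log2 change 4.81 with SE 0.28, adjusted p = 2.03e-05). Tbx5, its partner in the lung bud and a forelimb gene, was at 6.56 and 11.7 TPM in lung, against 0, 0 and 0 TPM in ear. Tbx2, a repressor gene that keeps embryonic lung mesenchyme dividing, was at 17.5 and 13.99 TPM in lung, against 0.342, 0.374 and 0.340 TPM in ear (log2 change 3.62 with SE 0.18, adjusted p = 1.08e-05), and Tbx3 was higher (log2 change 1.94). Tbx15, a gene of dermis and head skeleton, had the reverse pattern at 0.424 and 0.447 TPM in lung, against 39.2, 35.3 and 35.1 TPM in ear (log2 change -4.71 with SE 0.25, adjusted p = 1.53e-05). Tbx18 was at 5.49 and 6.71 TPM in lung, against 3.97, 5.10 and 2.69 TPM in ear and was not called.

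Several forkhead and GATA genes of mesenchyme around the gut were higher in lung. Foxf1, a hedgehog target of lung mesenchyme, was at 22.8 and 18.8 TPM in lung, against 0.330, 0.671 and 0.415 TPM in ear (log2 change 3.89 with SE 0.19, adjusted p = 1.02e-05), and its neighbour in function Foxf2 was higher (log2 change 3.11). Foxc1, a gene of head and eye mesenchyme, was at 1.05 and 1.72 TPM in lung, against 11.4, 8.67 and 8.06 TPM in ear (log2 change -2.13 with SE 0.25, adjusted p = 0.000863). Tcf21, which marks lung lipofibroblasts and other visceral mesenchyme, was at 7.80 and 7.74 TPM in lung, against 0, 0 and 0 TPM in ear. Gata6 was higher in lung (log2 change 1.96) and so was Gata2 (2.21), while Osr1, another visceral mesenchyme gene, was at 17.4 and 15.6 TPM in lung, against 12.2, 14.1 and 13.3 TPM in ear and was not called. Of 9 visceral mesenchyme factor genes tested, 5 were called higher in lung and 2 lower, and the count higher was 3 without lung 1 and the count lower was 0 without lung 1 or lung 2. Of these 3 passed the level filter through lung alone and 2 through ear alone, and of the 4 others 2 were called higher in lung and 0 lower. The lower members were Osr2 and Barx1. Osr2 was at 0 and 0 TPM in lung, against 6.11, 2.19 and 2.13 TPM in ear, a call lost without lung 1 (-2.05) or lung 2 (-2.05). Barx1 was at 0.264 and 0 TPM in lung, against 2.95, 1.27 and 1.36 TPM in ear, a call lost without lung 1 (-1.47) or lung 2 (-1.13). Foxp1 was at 71.3 and 89.2 TPM in lung, against 28.5, 33.7 and 22.5 TPM in ear (log2 change 1.48 with SE 0.26, adjusted p = 0.00678), and its call was lost without lung 2 (1.32).

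Homeobox and basic helix-loop-helix genes of head and skin were the counterpart in ear. Of 44 listed, 22 were tested, and of these 1 was called higher in lung and 15 lower. Of those tested, 11 passed the level filter through ear alone, and of the 11 others 1 was called higher in lung and 5 lower. Twist1, a gene of cranial mesenchyme and neural crest, was at 4.52 and 1.54 TPM in lung, against 55.3, 50.1 and 54.6 TPM in ear (log2 change -3.86 with SE 0.29, adjusted p = 6.50e-05). Msx1, a gene of facial and skin mesenchyme, was at 0.695 and 0.918 TPM in lung, against 16.4, 17.8 and 14.9 TPM in ear (log2 change -3.26 with SE 0.19, adjusted p = 2.05e-05). Dlx5 and Dlx6 are neighbouring genes that pattern the lower jaw arch. Dlx6 was at 0 and 0.0200 TPM in lung, against 8.79, 6.14 and 11.3 TPM in ear (log2 change -3.23 with SE 0.24, adjusted p = 5.99e-05), and Dlx5 was listed at 0 in both lung libraries with 6.09, 4.37 and 4.48 TPM in the ear libraries. The Iroquois genes Irx1, Irx3 and Irx5 were lower in lung with log2 changes of -3.69, -2.67 and -3.12, and so were Twist2 (-2.39) and Prrx2 (-2.34). Prrx1, the relative of Prrx2, was shared more evenly at 75.6 and 73.9 TPM in lung, against 195, 126 and 157 TPM in ear (log2 change -1.06 with SE 0.25, adjusted p = 0.0226), and its call was lost without lung 1 (-1.08), lung 2 (-1.04), ear 1 (-0.90) or ear 3 (-1.06). The gene of the list that was higher in lung was Hic1, a repressor gene of quiescent mesenchyme, at 9.29 and 11.9 TPM in lung, against 3.07, 4.96 and 2.70 TPM in ear, and that call was lost without lung 1 (1.52), lung 2 (1.20), ear 1 (1.29) or ear 3 (1.23) and with no level filter (1.36).

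**Figure D2:**
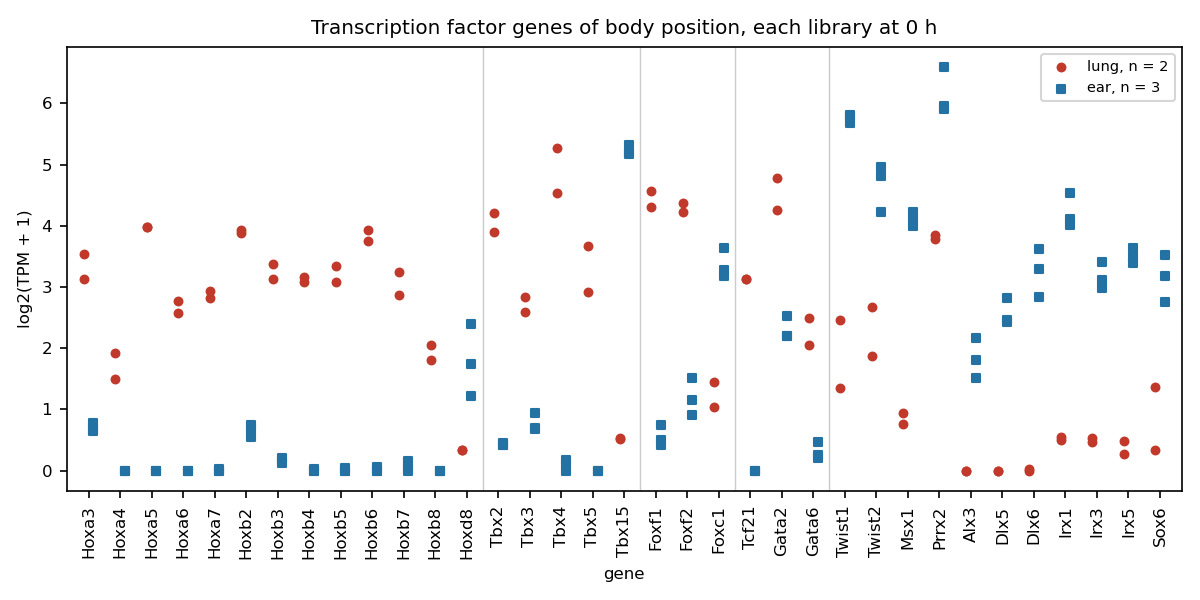
The log2(TPM + 1) of 35 transcription factor genes in each library at 0 h is shown, with lung libraries as red circles (n = 2) and ear libraries as blue squares (n = 3). The Hoxb genes lie near 0 in ear, and Tbx15, Msx1 and the Iroquois genes lie near the bottom in lung. Twist1 lies lower in lung than in ear.

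Several cartilage genes were lower in lung. Sox9, the master factor gene of cartilage cells, was at 0.288 and 0.430 TPM in lung, against 26.4, 22.3 and 18.002 TPM in ear (log2 change -4.08 with SE 0.23, adjusted p = 1.98e-05). Cnmd, which encodes the cartilage protein chondromodulin, was at 0.0339 and 0.0174 TPM in lung, against 69.4, 23.1 and 14.95 TPM in ear (log2 change -4.87 with SE 0.88, adjusted p = 0.00723), and its call was lost without lung 1 (-4.88). The groups did not overlap for either gene. Of the 11 cartilage genes tested, 0 were called higher in lung and 6 lower, and the count lower was 2 without lung 1. Of them 8 passed the level filter through ear alone, and of the 3 others 0 were called higher in lung and 2 lower. All 17 listed genes, untested ones included, summed to 13.9 and 31.4 TPM in the lung libraries, against 506, 245 and 137 TPM in the ear libraries. Col2a1, the main cartilage collagen gene, was at 3.09 and 0.0214 TPM in lung, against 96.4, 23.3 and 7.11 TPM in ear and was not called. In bulk libraries, fewer cells of a type and less RNA per cell cannot be told apart.

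Several small leucine-rich proteoglycans, which bind collagen fibrils and growth factors, were lower in lung. Aspn, the gene of the TGF-beta binding proteoglycan asporin, was at 0.196 and 0.503 TPM in lung, against 62.01, 60.004 and 30.3 TPM in ear (log2 change -5.20 with SE 0.65, adjusted p = 0.00110). Omd, osteomodulin, was lower, at 0.118 and 0.145 TPM in lung, against 8.34, 8.11 and 5.36 TPM in ear (log2 change -2.85). Of 11 tested, 1 was called higher in lung and 5 lower, with a median of -2.80, and the count lower was 2 without lung 1. Through ear alone 3 of them passed the level filter, and among the 8 others 1 was called higher in lung and 2 lower. The gene higher in lung was Podnl1, at 3.94 and 3.90 TPM in lung, against 1.18, 1.23 and 1.15 TPM in ear (log2 change 1.17 with SE 0.18, adjusted p = 0.00305). Dcn, which encodes decorin, was at 101 and 490.3 TPM in lung, against 1338, 298 and 559 TPM in ear and was not called. Fmod was at 2.78 and 11.2 TPM in lung, against 113, 76.2 and 42.8 TPM in ear, and its call was lost without lung 1 (-2.58).

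The collagen VI and VIII genes Col6a1, Col6a2, Col6a3, Col8a1 and Col8a2 were called lower in lung, while Col1a1, Col1a2 and Col3a1 were not called. Col6a2, a chain of the beaded filaments around cells, was at 10.1 and 23.6 TPM in lung, against 243, 119 and 85.1 TPM in ear (log2 change -3.04 with SE 0.46, adjusted p = 0.00323). Col8a1 was at 39.9 and 38.7 TPM in lung, against 380.4, 351 and 232 TPM in ear (log2 change -2.97 with SE 0.29, adjusted p = 0.000246). Each lung value lay under each ear value. The Col6a1 call was lost without lung 1 (-2.22). That of Col6a3 was lost without lung 1 (-2.03), lung 2 (-2.38), ear 1 (-1.75) or ear 2 (-2.28) and with no level filter (-2.21) and with a filter of 5 TPM (-2.21) and without the variance trend (-2.21). That of Col8a2 was lost without lung 1 (-2.78), lung 2 (-3.04), ear 1 (-2.60) or ear 2 (-2.86) and with no level filter (-2.91). Of 23 fibrillar and network collagen genes tested, 0 were called higher in lung and 6 lower, with a median of -0.95, and the count lower was 2 without lung 1 and 3 without ear 1 or ear 2. Col1a1 was at 469.6 and 1242 TPM in lung, against 469, 700.1 and 388 TPM in ear, so lung 2 lay above each ear library and lung 1 lay among them. Lamb2, a laminin chain gene of basement membranes, was lower, at 41.4 and 51.1 TPM in lung, against 302, 188 and 163 TPM in ear (log2 change -2.17).

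Several elastic fibre and matricellular genes were also lower in lung. Fbn2, fibrillin of developing tissue, was at 0.327 and 0.261 TPM in lung, against 15.3, 15.7 and 11.4 TPM in ear (log2 change -3.54 with SE 0.23, adjusted p = 3.11e-05). Efemp1, which encodes fibulin-3, was at 13.7 and 17.4 TPM in lung, against 192, 146 and 167 TPM in ear (log2 change -3.35 with SE 0.40, adjusted p = 0.000882), and the crosslinking enzyme gene Loxl4 was lower (log2 change -1.99). Of 23 elastic fibre genes, 0 were called higher in lung and 6 lower, with a median of -0.63, and the count lower was 3 without lung 1. Spp1, osteopontin, was among the most abundant genes of ear at 4984 and 2500.3 TPM in lung, against 33787, 36500.0 and 22510.0 TPM in ear (log2 change -3.10 with SE 0.43, adjusted p = 0.00193). Thbs4, a tendon thrombospondin gene, was at 0.00533 and 0.0214 TPM in lung, against 26.2, 15.8 and 4.41 TPM in ear, and Tnn, tenascin-W, was at 0.0838 and 0.153 TPM in lung, against 8.05, 3.58 and 5.08 TPM in ear. Of 24 matricellular genes, 1 was called higher in lung and 7 lower, and the count higher was 0 without lung 1 or lung 2 and the count lower was 3 without lung 1 and 4 without ear 1. Through ear alone 5 of them passed the level filter, and among the 19 others 1 was called higher in lung and 3 lower. Fn1 was at 219.8 and 408 TPM in lung, against 1265, 708 and 612 TPM in ear, and its call was lost without lung 1 (-1.001), ear 1 (-1.13) or ear 2 (-1.55) and with the 5 libraries at 0 h alone (-1.45) and with no level filter (-1.45). Abi3bp, an extracellular matrix binding protein gene, was at 0.0731 and 0.176 TPM in lung, against 76.8, 38.4 and 24.3 TPM in ear (log2 change -5.25 with SE 0.57, adjusted p = 0.000518).

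Several matrix proteases were higher in lung. Of 29 proteases and inhibitors tested, 3 passed the level filter through lung alone and 1 through ear alone. Among the 25 others, 4 were called higher in lung and 2 lower. Mmp12, the elastase of macrophages, was at 851 and 224 TPM in lung, against 13.8, 2.86 and 5.62 TPM in ear (log2 change 5.92 with SE 0.75, adjusted p = 0.00116). Mmp10, stromelysin-2, was at 30.6 and 16.5 TPM in lung, against 0.104, 0.0464 and 0.0741 TPM in ear (log2 change 4.45 with SE 0.25, adjusted p = 2.01e-05), and Mmp9, gelatinase B, was at 73.8 and 12.1 TPM in lung, against 0.223, 0.0808 and 0.716 TPM in ear (log2 change 4.57 with SE 0.70, adjusted p = 0.00337). Mmp2, gelatinase A, was at 17.5 and 59.5 TPM in lung, against 355, 144 and 112 TPM in ear, and its call, lower in lung, was lost without lung 1 (-1.57), ear 1 (-1.94) or ear 2 (-2.58) and with the 5 libraries at 0 h alone (-2.43) and with no level filter (-2.43). Of 29 proteases and inhibitors of this class, 7 were called higher in lung and 2 lower, and the count lower was 0 without lung 1, ear 1 or ear 2.

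Contractile genes of smooth muscle type were high in lung. Actg2, smooth muscle gamma actin, was at 943 and 914 TPM in lung, against 9.72, 32.1 and 14.9 TPM in ear (log2 change 5.71 with SE 0.95, adjusted p = 0.00500). Myh11, smooth muscle myosin heavy chain, was at 49.4 and 38.9 TPM in lung, against 0.617, 0.870 and 0.432 TPM in ear (log2 change 4.78 with SE 0.39, adjusted p = 0.000111). Des, the muscle intermediate filament gene, was at 107 and 40.4 TPM in lung, against 1.37, 1.09 and 2.24 TPM in ear (log2 change 4.73 with SE 0.55, adjusted p = 0.000725). For these 3 genes each lung library exceeded each ear library by more than 10-fold. Mylk, the kinase gene that turns on smooth muscle myosin, was higher (log2 change 3.80), and Mrtfa, a coactivator of serum response factor, was at 37.1 and 32.1 TPM in lung, against 7.53, 8.05 and 6.99 TPM in ear (log2 change 2.06 with SE 0.20, adjusted p = 0.000227). Of 23 contractile genes tested, 17 were called higher in lung and 0 lower, with a median of 2.33, and both lung libraries lay above all ear libraries for 23. The count higher was 6 without lung 1. The most abundant were Acta2, smooth muscle alpha actin, at 5294 and 4999 TPM in lung, against 289, 1594 and 493 TPM in ear, and Tagln, at 3796 and 3597 TPM in lung, against 124, 996 and 361 TPM in ear. Neither was called, but both were with the 5 libraries at 0 h alone (3.07 and 3.37). The Myl9 call, at 3.37, was lost without lung 1 (3.43), lung 2 (3.31), ear 1 (2.96) or ear 3 (3.18) and with no level filter (3.37), and the Srf call, at 1.05, was lost without lung 1 (0.81), ear 1 (1.05) or ear 3 (0.97).

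Serum response factor binds the CArG box, which is CC, then 6 bases that are each A or T, then GG. The promoters of 2 called genes of the contractile list hold it. They are Myl9 and Srf, the gene of the factor itself. The window searched ran from 250 bases before to 50 after the start of the gene. The windows are RefSeq sequences on GRCm38.p6, and 90 bases of each are shown because these genes were higher in lung. Capitals mark the CArG boxes.
Myl9, chr2:156775263-156775352, plus strand: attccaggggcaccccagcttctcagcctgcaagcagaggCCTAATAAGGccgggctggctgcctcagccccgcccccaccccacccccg
Srf, chr17:46556195-46556284, minus strand: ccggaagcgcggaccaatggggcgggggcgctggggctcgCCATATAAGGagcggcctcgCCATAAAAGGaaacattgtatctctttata
The stretch of Srf holds 2 boxes, the stretch of Myl9 1. On either strand the box was present in 2 of 15 called genes of the contractile list with a window (13.3%) and 2 of 19 tested (10.5%). It was present in 1.57% of the windows of all genes tested and 1.63% of 32851 windows. The share among called genes was thus near that of the whole list, and both shares rest on these 2 genes. The list was chosen for smooth muscle genes and holds Srf itself, so its excess over all genes does not bear on lung against ear. A match describes the letters only.

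Several YAP target and integrin genes were higher in lung. Ankrd1, a target of the coactivators YAP and MRTF, was at 254 and 95.7 TPM in lung, against 2.29, 12.8 and 6.46 TPM in ear (log2 change 4.49 with SE 0.60, adjusted p = 0.00163). Cavin2, a caveolar coat gene, was at 259.9 and 335 TPM in lung, against 67.3, 77.996 and 79.9 TPM in ear (log2 change 1.96 with SE 0.30, adjusted p = 0.00348). Ptpn14, a phosphatase gene that restrains YAP, was lower, at 4.83 and 3.72 TPM in lung, against 18.5, 17.3 and 15.7 TPM in ear (log2 change -1.79). Of 20 YAP pathway and target genes, 5 were called higher in lung and 1 lower, and the count higher was 3 without lung 1. The target genes Ccn1 (log2 change 0.48), Ccn2 (1.43) and Amotl2 (0.15) were not called. The collagen receptor gene Itga2 was at 6.07 and 18.3 TPM in lung, against 0.392, 0.403 and 0.292 TPM in ear (log2 change 3.10 with SE 0.49, adjusted p = 0.00388). The fibronectin receptor gene Itga5 was at 123 and 86.2 TPM in lung, against 20.2, 21.1 and 15.9 TPM in ear (log2 change 2.38 with SE 0.22, adjusted p = 0.000207), and the laminin receptor gene Itga3 was lower (log2 change -1.84). Of 29 integrin genes, 7 were called higher in lung and 2 lower, and the count higher was 4 without lung 1 and the count lower was 1 without lung 1. Of the 29 integrin genes, 4 passed the level filter through lung alone and 1 through ear alone. Among the 24 others, 4 were called higher in lung and 2 lower. The leukocyte integrin genes Itgb2 (log2 change 5.48) and Itgax (4.11) were also called higher in lung. The actin genes and actin-binding thymosins were among the most abundant genes of lung. Tmsb10 was at 14288 and 12090.0 TPM in lung, against 4373, 5860.0 and 7106 TPM in ear (log2 change 1.21 with SE 0.25, adjusted p = 0.0127), a call lost without lung 1 (1.09) and with no level filter (1.21) and with quantile normalization (0.71). Actb was higher (log2 change 1.16, adjusted p = 0.0343), a call lost without lung 1 (0.99), lung 2 (1.33), ear 1 (1.07), ear 2 (1.28) or ear 3 (1.13) and with no level filter (1.16) and with quantile normalization (0.64).

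Interleukin ligand and receptor genes held large differences in both directions. Il1rl1 (ENSMUSG00000026069.15, chromosome 1 at 40429570 to 40465415), the receptor gene for interleukin 33, was at 7.84 and 6.22 TPM in lung, against 1681, 1070.2 and 1992 TPM in ear (log2 change -7.58 with SE 0.33, adjusted p = 7.78e-06). Its co-receptor gene Il1rap was at 24.3 and 29.7 TPM in lung, against 83.1, 74.2 and 59.1 TPM in ear (log2 change -1.38 with SE 0.18, adjusted p = 0.00160). Il16, which encodes a chemoattractant cytokine, was at 1.41 and 3.34 TPM in lung, against 220.0, 124 and 111 TPM in ear (log2 change -5.50 with SE 0.34, adjusted p = 2.73e-05). The ear libraries were higher for each of these. Il11, an IL-6 family cytokine gene of fibroblasts, was at 67.4 and 85.2 TPM in lung, against 4.73, 6.84 and 7.14 TPM in ear (log2 change 3.42 with SE 0.22, adjusted p = 2.87e-05), Il1a was at 6.89 and 5.38 TPM in lung, against 0.112, 0.125 and 0.0714 TPM in ear (log2 change 2.69 with SE 0.30, adjusted p = 0.000648) and Lif, another IL-6 family ligand, was higher (log2 change 1.64). Il6st, the shared receptor chain of that family, was at 205 and 479 TPM in lung, against 1210.4, 1084 and 822 TPM in ear, and its call, lower in lung, was lost without lung 1 (-1.10), ear 1 (-1.59) or ear 2 (-1.67) and with no level filter (-1.71). Of 29 genes of these families, 4 were called higher in lung and 9 lower, and the count lower was 3 without lung 1, 4 without ear 2 and 5 without ear 1.

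BMP and activin genes differed chiefly in ligands and their antagonists. Of 34 BMP and GDF pathway genes tested, 5 passed the level filter through ear alone. Among the 29 others, 7 were called higher in lung and 1 lower. Inhbb, the activin B subunit gene, was at 0.919 and 0.872 TPM in lung, against 38.9, 25.5 and 23.2 TPM in ear (log2 change -3.96 with SE 0.31, adjusted p = 8.18e-05). Inhba, the activin A subunit gene, had the opposite direction at 75.8 and 58.7 TPM in lung, against 25.1, 23.3 and 16.4 TPM in ear (log2 change 1.60 with SE 0.28, adjusted p = 0.00634), and its call was lost without lung 1 (1.42). Fstl3, a secreted activin inhibitor gene, was at 33.1 and 41.9 TPM in lung, against 11.8, 13.03 and 10.1 TPM in ear (log2 change 1.60 with SE 0.23, adjusted p = 0.00270). Bmp4 was at 42.3 and 46.01 TPM in lung, against 6.23, 7.85 and 5.78 TPM in ear and was called higher in lung (log2 change 2.58 with SE 0.56, adjusted p = 0.0170), a call lost without lung 1 (2.63), lung 2 (2.52) or ear 3 (2.50). Nog, noggin, was at 0.457 and 0.137 TPM in lung, against 9.65, 1.97 and 8.73 TPM in ear, and its call, lower in lung, was lost without lung 1 (-2.57) or lung 2 (-2.21) and with array weights (-1.77). Of 34 BMP and GDF pathway genes, 7 were called higher in lung and 4 lower, and the count higher was 2 without lung 1 or lung 2, 3 without ear 2 or ear 3 and 4 without ear 1 and the count lower was 1 without lung 1 or lung 2 and 2 without ear 1 or ear 3.

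FGF, Wnt and IGF genes each held members in both directions. Fgf10, the ligand of lung branching, was at 31.04 and 94.1 TPM in lung, against 9.59, 9.81 and 10.8 TPM in ear (log2 change 2.32 with SE 0.45, adjusted p = 0.00988), and its call was lost without lung 2 (1.54). Fgf7, a ligand for epithelium, was at 110.0 and 188 TPM in lung, against 376, 261 and 297 TPM in ear, and its call, lower in lung, was lost without lung 1 (-0.71), ear 1 (-0.95), ear 2 (-1.21) or ear 3 (-1.12) and with the 5 libraries at 0 h alone (-1.09) and with no level filter (-1.09). Of 19 FGF pathway genes, 3 were called higher in lung and 4 lower, and the count higher was 1 without lung 1 and the count lower was 0 without lung 1, 1 without ear 1 and 2 without lung 2 or ear 3. Wnt16 was at 0.0311 and 0.0157 TPM in lung, against 10.3, 4.77 and 6.22 TPM in ear (log2 change -2.92 with SE 0.53, adjusted p = 0.00750), a call lost without lung 1 (-2.94). Of 34 Wnt pathway genes, 3 were called higher in lung and 5 lower, and the count higher was 0 without lung 2, ear 2 or ear 3 and 1 without lung 1 and the count lower was 0 without lung 1, 2 without ear 1 and 3 without lung 2 or ear 3. With all libraries the Wnt shares were 8.8% higher and 14.7% lower, against 6.25% and 5.43% of all genes tested. Of the 34 Wnt genes, 1 passed the level filter through lung alone and 7 through ear alone. Among the 26 others, 3 were called higher in lung and 3 lower. Igf1 was at 65.1 and 93.6 TPM in lung, against 15.7, 7.54 and 3.12 TPM in ear (log2 change 3.24 with SE 0.60, adjusted p = 0.00822), a call lost without lung 2 (2.98). Igfbp6, a binding protein that holds IGF2, was at 20.3 and 19.4 TPM in lung, against 101, 81.1 and 98.5 TPM in ear (log2 change -2.17 with SE 0.26, adjusted p = 0.000844). Of 16 IGF genes, 2 were called higher in lung and 4 lower, and the count higher was 0 without lung 2 and 1 without lung 1 or ear 3 and the count lower was 1 without lung 1 and 2 without lung 2.

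Hedgehog co-receptors, retinoid genes and guidance cues gave several calls that held without any 1 library. Gas1 and Cdon are membrane proteins that help hedgehog bind. Gas1 was at 1.72 and 3.91 TPM in lung, against 46.9, 34.8 and 38.04 TPM in ear (log2 change -3.47 with SE 0.28, adjusted p = 8.65e-05), and Cdon was at 1.49 and 2.55 TPM in lung, against 18.5, 11.001 and 9.74 TPM in ear (log2 change -2.19 with SE 0.29, adjusted p = 0.00161). Aldh1a2, which makes retinoic acid, was at 25.4 and 42.99 TPM in lung, against 0.305, 0.117 and 0.0447 TPM in ear (log2 change 4.89 with SE 0.34, adjusted p = 4.60e-05). Crabp1, which binds retinoic acid inside cells, was at 13.7 and 10.4 TPM in lung, against 114, 235 and 221 TPM in ear (log2 change -3.81 with SE 0.37, adjusted p = 0.000276). Rarres1, a retinoid-responsive gene, was at 4.99 and 3.93 TPM in lung, against 58.6, 57.95 and 72.8 TPM in ear (log2 change -3.55 with SE 0.54, adjusted p = 0.00329). Of 17 retinoid genes, 1 was called higher in lung and 6 lower, and the count lower was 3 without lung 1 or lung 2. Of the 17 retinoid genes, 2 passed the level filter through lung alone and 2 through ear alone. Among the 13 others, 0 were called higher in lung and 4 lower. Sema3a, a secreted repellent of axons, was at 181 and 179.6 TPM in lung, against 4.53, 4.45 and 6.83 TPM in ear (log2 change 4.88 with SE 0.30, adjusted p = 2.73e-05), and Bdnf, a neurotrophin gene, was at 91.2 and 80.9 TPM in lung, against 10.2, 14.1 and 11.3 TPM in ear (log2 change 2.77 with SE 0.26, adjusted p = 0.000207). Sema3f and Efna1 were lower in lung, with log2 changes of -1.93 and -2.31. Cck, which encodes a gut and brain peptide, was at 587 and 247 TPM in lung, against 1.28, 1.45 and 10.3 TPM in ear (log2 change 6.58 with SE 0.82, adjusted p = 0.00111).

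**Figure D3:**
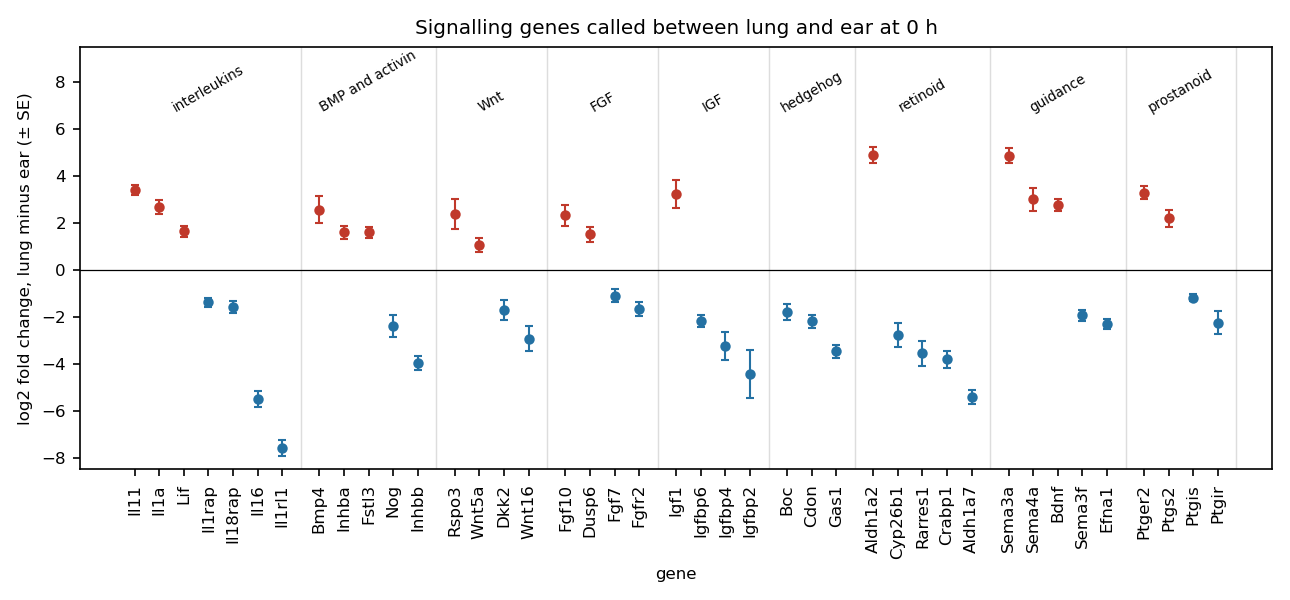
Points are log2 fold changes, lung minus ear at 0 h, of signalling genes that were called, and bars are ± 1 SE of limma's fit over 10 libraries. Red points are higher in lung and blue points lower, and Sema3a, at 4.88, and Il1rl1, at -7.58, are far from 0.

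Genes of macrophages were present in the lung libraries. Cd68, a macrophage lysosome protein gene, was at 181 and 105 TPM in lung, against 8.67, 3.07 and 5.53 TPM in ear (log2 change 4.45 with SE 0.60, adjusted p = 0.00172). Spi1, which encodes the myeloid factor PU.1, was at 33.7 and 15.3 TPM in lung, against 0.429, 0.171 and 0.343 TPM in ear (log2 change 4.18 with SE 0.54, adjusted p = 0.00132). Mrc1, the mannose receptor, was at 17.3 and 17.4 TPM in lung, against 0.308, 0.137 and 0.223 TPM in ear (log2 change 3.91 with SE 0.43, adjusted p = 0.000530). For these 3 genes each lung library exceeded each ear library by more than 10-fold, and lung 1 exceeded lung 2 for the first pair. Of 25 macrophage genes tested, 19 were called higher in lung and 0 lower, and neither count moved by more than 1.5 times when 1 library was left out. Of them 13 passed the level filter through lung alone, and of the 12 others 7 were called higher in lung and 0 lower. All 28 listed genes summed to 8696 and 5881 TPM in the lung libraries, against 265, 72.97 and 123 TPM in the ear libraries. Chil3, a marker of alveolar macrophages, was at 5.66 and 14.7 TPM in lung, against 0, 0 and 0 TPM in ear. Siglecf, a lectin of the same cells, was at 5.82 and 4.77 TPM in lung, against 0, 0.0415 and 0 TPM in ear, and its call was lost without lung 1 (2.51). Ptprc, the pan-leukocyte gene CD45, was at 12.4 and 8.80 TPM in lung, against 0.104, 0.0254 and 0.133 TPM in ear (log2 change 3.40 with SE 0.43, adjusted p = 0.00112). How far the presence of macrophage transcripts enters the other calls was not tested.

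Genes with roles in myeloid cells were high in the same libraries. The chemokine gene Ccl3 was at 44.7 and 17.2 TPM in lung, against 0.113, 0.451 and 0.360 TPM in ear (log2 change 4.47 with SE 0.45, adjusted p = 0.000327). Its relative Ccl4 was at 26.1 and 10.03 TPM in lung, against 0.113, 0 and 0.120 TPM in ear. Ccl6 was higher (log2 change 7.93) and so was Pf4 (7.17). The lectin receptor gene Clec7a, which detects fungal glucan, was at 112 and 79.8 TPM in lung, against 0.0994, 0.132 and 0.162 TPM in ear (log2 change 6.40 with SE 0.29, adjusted p = 7.78e-06). Itgb2, the shared chain of leukocyte integrins, was higher (log2 change 5.48). Of 14 C-type lectin genes, 7 were called higher in lung and 3 lower, and the count higher was 3 without lung 1 and 4 without lung 2 and the count lower was 1 without lung 1 or lung 2. Through lung alone 4 of them passed the level filter, and through ear alone 3. Among the 7 others, 3 were called higher in lung and 2 lower. Of 35 lysosome genes, 6 were called higher in lung and 0 lower, and neither count moved by more than 1.5 times when 1 library was left out. Ctss and Atp6v0d2, a cathepsin gene and a proton pump subunit gene of osteoclasts and macrophages, were higher, with log2 changes of 6.18 and 5.46. Ctsd, a cathepsin gene that most cells use, was at 3282 and 2248 TPM in lung, against 1112, 679.5 and 559.9 TPM in ear, and its call was lost without lung 1 (1.58), lung 2 (2.13), ear 2 (1.78) or ear 3 (1.64) and with no level filter (1.85).

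Complement and eicosanoid genes held members in both directions. The C1q chain genes, which macrophages make, were near 0 in ear, with C1qa at 9.38 and 10.1 TPM in lung, against 0.0759, 0.101 and 0 TPM in ear (log2 change 3.34 with SE 0.41, adjusted p = 0.000991). C4b, which liver and fibroblasts make, was at 0.530 and 2.34 TPM in lung, against 215, 57.2 and 49.8 TPM in ear (log2 change -5.25 with SE 0.72, adjusted p = 0.00174). C3 was at 2.52 and 7.42 TPM in lung, against 204, 68.1 and 50.98 TPM in ear, and its call, lower in lung, was lost without lung 1 (-3.42). Of 18 complement genes, 6 were called higher in lung and 2 lower, and the count lower was 1 without lung 1. Through lung alone 5 of them passed the level filter, and through ear alone 1. Among the 12 others, 1 was called higher in lung and 2 lower, so most of the calls higher in lung came through the filter. Alox5ap, needed for leukotriene synthesis, was at 65.2 and 48.9 TPM in lung, against 3.23, 2.43 and 1.72 TPM in ear (log2 change 4.08 with SE 0.61, adjusted p = 0.00290), and Tbxas1, thromboxane synthase, was higher (log2 change 3.59). Ptger2, a prostaglandin E2 receptor gene, was at 9.99 and 18.04 TPM in lung, against 0.758, 0.403 and 0.285 TPM in ear (log2 change 3.30 with SE 0.29, adjusted p = 0.000162). Ptgis, prostacyclin synthase, was at 29.2 and 27.3 TPM in lung, against 63.7, 63.5 and 67.5 TPM in ear (log2 change -1.17 with SE 0.14, adjusted p = 0.000803), and Hpgd, which inactivates prostaglandins, was lower (log2 change -2.09). Ptgs2 was at 245 and 181 TPM in lung, against 35.8, 35.2 and 72.5 TPM in ear (log2 change 2.20 with SE 0.36, adjusted p = 0.00429), a call lost without lung 1 (1.99).

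**Figure D4:**
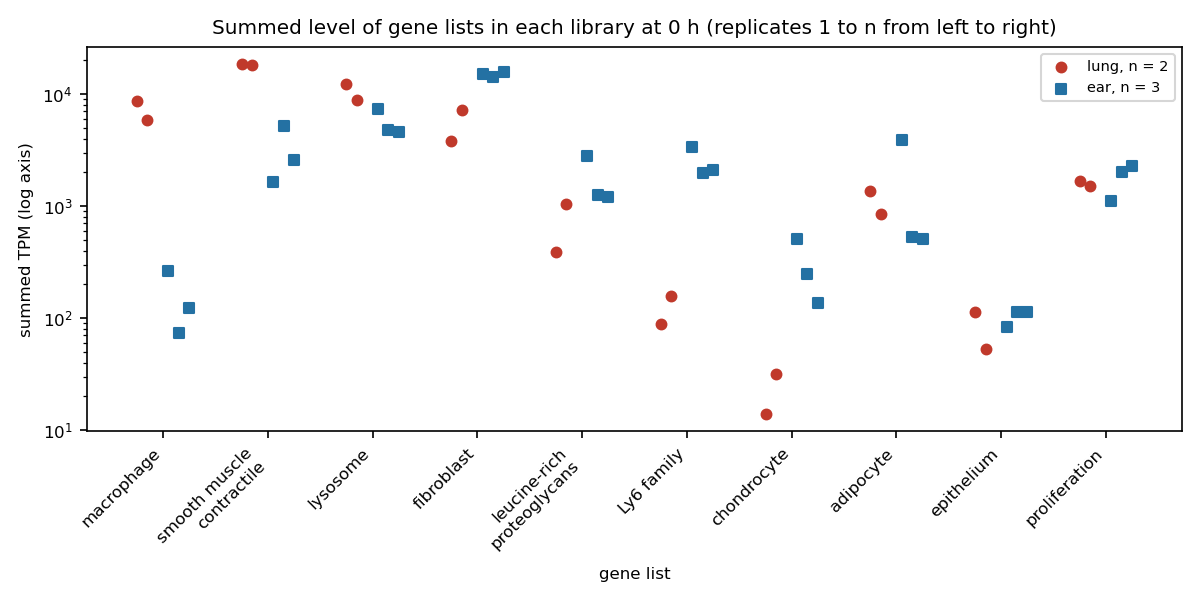
The summed TPM of 10 gene lists in each library at 0 h is shown on a log axis, with lung libraries as red circles (n = 2) and ear libraries as blue squares (n = 3). Macrophage and contractile genes are higher in lung, cartilage and Ly6 genes lower, and ear 1 is highest in adipocyte genes.

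Interferon-stimulated genes were lower in lung in some members. Ifit2, an antiviral RNA-binding protein gene, was at 18.6 and 22.1 TPM in lung, against 78.9, 67.7 and 54.1 TPM in ear (log2 change -1.66 with SE 0.22, adjusted p = 0.00135). Ifit1 was at 0.245 and 0.640 TPM in lung, against 2.57, 8.81 and 3.60 TPM in ear (log2 change -1.93 with SE 0.38, adjusted p = 0.0110), and its call was lost without lung 1 (-1.73). Stat2, a signal transducer for type I interferon, was at 5.001 and 6.73 TPM in lung, against 13.8, 14.2 and 9.45 TPM in ear (log2 change -0.96 with SE 0.25, adjusted p = 0.0373), and its call was lost without lung 1 (-0.78), lung 2 (-1.15), ear 1 (-0.89) or ear 2 (-0.87) and with the 5 libraries at 0 h alone (-0.96) and with no level filter (-0.96). Of 28 tested, 0 were called higher in lung and 7 lower, with a median of -0.66, and the count lower was 1 without lung 1 and 4 without ear 2. Of the 28, 1 passed the level filter through lung alone and 3 through ear alone. Among the 24 others, 0 were called higher in lung and 4 lower. Ear 2 held the highest Ifit1, Ifit3 and Xaf1 of all 5 libraries. The Ifit3, Ifit3b and Xaf1 calls were lost without lung 1 (-1.59) or lung 2 (-1.65) for Ifit3, without lung 1 (-1.58) for Ifit3b and without lung 1 (-1.11), ear 1 (-1.83), ear 2 (-1.18) or ear 3 (-1.84) and with the 5 libraries at 0 h alone (-1.62) and with no level filter (-1.62) and with quantile normalization (-1.57) for Xaf1. B2m, the light chain gene of class I molecules, was at 841 and 849 TPM in lung, against 1709.9, 1098 and 883 TPM in ear and was not called. Ifitm3, a membrane antiviral gene, was at 321 and 526 TPM in lung, against 760.3, 806 and 628 TPM in ear and was called lower in lung with array weights alone (-0.87). Ifit3 and Ifit3b are near-identical copies, so their division of reads is uncertain.

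The interferon-stimulated response element has a core of GAAA, any 2 bases and GAAA, and both strands of the promoter windows were searched for it. The stretches below are RefSeq sequences of the called genes Stat2, Ifit1 and Ifit3, 90 bases each on GRCm38.p6, and capitals mark the core, here read on the other strand.
Stat2, chr10:128270248-128270337, plus strand: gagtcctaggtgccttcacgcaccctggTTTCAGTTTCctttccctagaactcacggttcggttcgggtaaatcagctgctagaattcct
Ifit1, chr19:34640745-34640834, plus strand: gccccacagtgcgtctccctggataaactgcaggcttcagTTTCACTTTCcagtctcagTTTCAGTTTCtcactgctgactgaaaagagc
Ifit3, chr19:34583333-34583422, plus strand: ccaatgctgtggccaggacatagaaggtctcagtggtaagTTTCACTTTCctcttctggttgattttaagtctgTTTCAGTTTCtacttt
The core was present in 13 of 25 interferon-stimulated genes tested that have a window (52.0%) and in 4 of the 7 called (57.1%), against 3.74% of the windows of all genes tested. The share among called genes was thus near that of the whole list. Because the list was drawn by response to interferon, its excess over all genes does not bear on lung against ear. As with the CArG box, a match describes the letters only.

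Most of the Ly6 family surface antigens that passed the level filter were lower in lung, and many other family genes did not pass it. Ly6a, the gene of the progenitor antigen Sca-1, was at 15.3 and 23.7 TPM in lung, against 2899, 1664 and 1789 TPM in ear (log2 change -6.68 with SE 0.39, adjusted p = 2.05e-05). Ly6c1 was at 0.396 and 0.583 TPM in lung, against 60.4, 24.8 and 31.8 TPM in ear (log2 change -4.65 with SE 0.44, adjusted p = 0.000220), and Thy1, a fibroblast antigen outside the family, was at 11.1 and 34.9 TPM in lung, against 353, 365 and 219 TPM in ear (log2 change -3.87 with SE 0.44, adjusted p = 0.000642). Each lung value lay under each ear value for all 3. Of 7 family genes tested, 0 were called higher in lung and 5 lower, and the count lower was 3 without lung 1. Through ear alone 3 of them passed the level filter, and among the 4 others 0 were called higher in lung and 2 lower. These genes resemble each other, so the division of reads between them is uncertain. Of 21 general fibroblast genes, 0 were called higher in lung and 6 lower, with a median of -0.96, and neither count moved by more than 1.5 times when 1 library was left out. Dpt, dermatopontin, was at 0.779 and 1.59 TPM in lung, against 62.99, 57.4 and 40.8 TPM in ear (log2 change -4.65 with SE 0.43, adjusted p = 0.000201), and S100a4 at 542 and 666 TPM in lung, against 3504, 4754 and 8381 TPM in ear (log2 change -3.11 with SE 0.48, adjusted p = 0.00348).

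Markers of other cell types differed in both directions, and their part in other results was not tested. The epithelial keratin gene Krt18 was at 15.6 and 4.69 TPM in lung, against 0.475, 0.105 and 0.337 TPM in ear (log2 change 2.91 with SE 0.45, adjusted p = 0.00352). Trp63, the factor gene of basal epidermis, was at 0 and 0.0635 TPM in lung, against 8.18, 5.29 and 6.59 TPM in ear (log2 change -2.88 with SE 0.23, adjusted p = 0.000105). The epidermal keratin genes Krt5 and Krt14 did not pass the level filter. In ear, Krt5 was at 0.163, 0 and 0.331 TPM and Krt14 at 0.533, 0.0271 and 0.962 TPM. Of 12 epithelial genes, 5 were called higher in lung and 3 lower, and the count higher was 1 without lung 1. Through lung alone 3 of them passed the level filter, and through ear alone 2. Among the 7 others, 2 were called higher in lung and 1 lower. All listed epithelial genes, untested ones included, summed to 113 and 53.3 TPM in the lung libraries, against 82.9, 114 and 112 TPM in the ear libraries. The surfactant gene Sftpc was at 3.22 and 5.67 TPM in lung, against 0.138, 0 and 0.110 TPM in ear. Of 4 mesothelial genes tested, 2 were called higher in lung and 2 lower, and the count higher was 1 without lung 1 or ear 1 and the count lower was 1 without lung 1, lung 2, ear 1 or ear 2. Msln, mesothelin, was at 4.35 and 1.05 TPM in lung, against 108, 71.1 and 144 TPM in ear (log2 change -4.98 with SE 0.47, adjusted p = 0.000218). Rspo1, a Wnt agonist gene, was lower (log2 change -1.88), a call lost without lung 1 (-1.70), lung 2 (-2.07), ear 1 (-1.42) or ear 2 (-1.93) and with the 5 libraries at 0 h alone (-1.88) and with no level filter (-1.88). The list's members that were higher in lung were Aldh1a2, described above, and the keratin gene Krt19 (log2 change 1.66), whose call was lost without lung 1 (1.30) or ear 1 (1.48). Of 9 pericyte genes, 1 was called higher in lung and 1 lower, and the count lower was 0 without lung 1, lung 2 or ear 1. The potassium channel gene Kcnj8 was at 25.9 and 29.9 TPM in lung, against 0.0641, 0.0105 and 0.140 TPM in ear (log2 change 4.75 with SE 0.41, adjusted p = 0.000144). The surface proteoglycan gene Cspg4 was at 0.829 and 1.10 TPM in lung, against 17.5, 7.03 and 8.03 TPM in ear (log2 change -2.49 with SE 0.56, adjusted p = 0.0203), a call lost without lung 1 (-2.39), lung 2 (-2.59) or ear 1 (-2.12). The receptor gene Pdgfrb was at 26.6 and 40.9 TPM in lung, against 58.1, 74.8 and 50.2 TPM in ear and was not called. Adipocyte genes summed to 1367 and 852 TPM in the lung libraries, against 3892, 524 and 506 TPM in the ear libraries, so ear 1 was the highest library. The largest lung values in that sum were Fabp5, at 728 and 587 TPM, and Cd36, at 488 and 184 TPM. Plin1 was at 0.197 and 0.131 TPM in lung, against 220, 4.43 and 7.45 TPM in ear. Adipoq was at 0 and 0.0429 TPM in lung, against 34.3, 3.46 and 0.675 TPM in ear. None of these genes was called. Of 10 tested, 0 were called higher in lung and 1 lower, and the count lower was 0 without lung 1 or lung 2, 2 without ear 3 and 3 without ear 1 or ear 2. Of 8 endothelial genes, 0 were called higher in lung and 1 lower. Of 12 skeletal muscle genes, 0 were called higher in lung and 0 lower, while 0 were higher and 0 lower in limma's test at an unadjusted p under 0.05.

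Metabolic and detoxification genes gave few firm calls. Ephx1, an epoxide hydrolase gene, was at 63.3 and 107 TPM in lung, against 379.9, 269.9 and 251 TPM in ear (log2 change -1.83 with SE 0.29, adjusted p = 0.00395). Hk2, a hexokinase gene, was at 21.2 and 25.8 TPM in lung, against 8.07, 4.30 and 2.98 TPM in ear (log2 change 2.08 with SE 0.31, adjusted p = 0.00278). Of 37 antioxidant and detoxification genes, 3 were called higher in lung and 7 lower, and the count higher was 0 without lung 1 and 1 without ear 3 and the count lower was 1 without lung 1, 2 without lung 2, 3 without ear 1 and 4 without ear 3. With all libraries these shares were 8.1% higher and 18.9% lower, against 6.25% and 5.43% of all genes tested. Of 23 cholesterol synthesis genes, 0 were called higher in lung and 5 lower, with a median of -0.52, and the count lower was 0 without lung 1 or lung 2 and 1 without ear 1 or ear 3. Of 36 glycolysis and hypoxia genes, 4 were called higher in lung and 0 lower, with a median of 0.47, and the count higher was 1 without lung 1 or lung 2 and 2 without ear 3. Of 17 clock genes, 1 was called higher in lung and 5 lower, and the count higher was 0 without lung 1, lung 2 or ear 3 and the count lower was 0 without lung 1, 2 without lung 2 and 3 without ear 1 or ear 3. Bhlhe41 was at 15.3 and 15.1 TPM in lung, against 3.67, 3.85 and 2.93 TPM in ear, and its call was lost without lung 1 (1.85), lung 2 (1.86) or ear 3 (1.76). The imprinted genes Peg3 and Mest ran opposite ways: Peg3 was at 77.2 and 60.9 TPM in lung, against 6.92, 2.14 and 4.82 TPM in ear (log2 change 3.73 with SE 0.48, adjusted p = 0.00122) and Mest at 2.16 and 3.05 TPM in lung, against 68.7, 70.7 and 33.6 TPM in ear (log2 change -3.96 with SE 0.59, adjusted p = 0.00295).

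Genes of cell division, translation and protein folding gave few or no calls. Of 36 proliferation genes, 0 were called higher in lung and 0 lower, with a median of -0.12. In limma's test 0 were higher and 0 lower at an unadjusted p under 0.05. Pcna, a replication clamp gene, differed by 0.086 (95% interval -1.10 to 1.27). Of 42 ribosomal protein genes, 0 were called higher in lung and 1 lower, with a median of -0.12, and the member called was Rpl39l, a close copy of Rpl39 known for expression in testis that may share reads with it, at 8.50 and 5.06 TPM in lung, against 237, 319 and 353 TPM in ear (log2 change -5.30 with SE 0.26, adjusted p = 1.02e-05). Rpl39 itself differed by -0.17 (95% interval -0.70 to 0.35), so the interval reaches 0. Of 26 chaperone genes, 1 was called higher in lung and 0 lower, with a median of 0.020, and Hspa5, the main endoplasmic reticulum chaperone gene, differed by 0.019 (95% interval -0.38 to 0.41). A p that misses the threshold does not show equal levels, and these intervals give the sizes the data still allow. Of 21 immediate early genes, 2 were called higher in lung and 0 lower, and the count higher was 0 without lung 1 and 1 without lung 2.

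**Figure D5:**
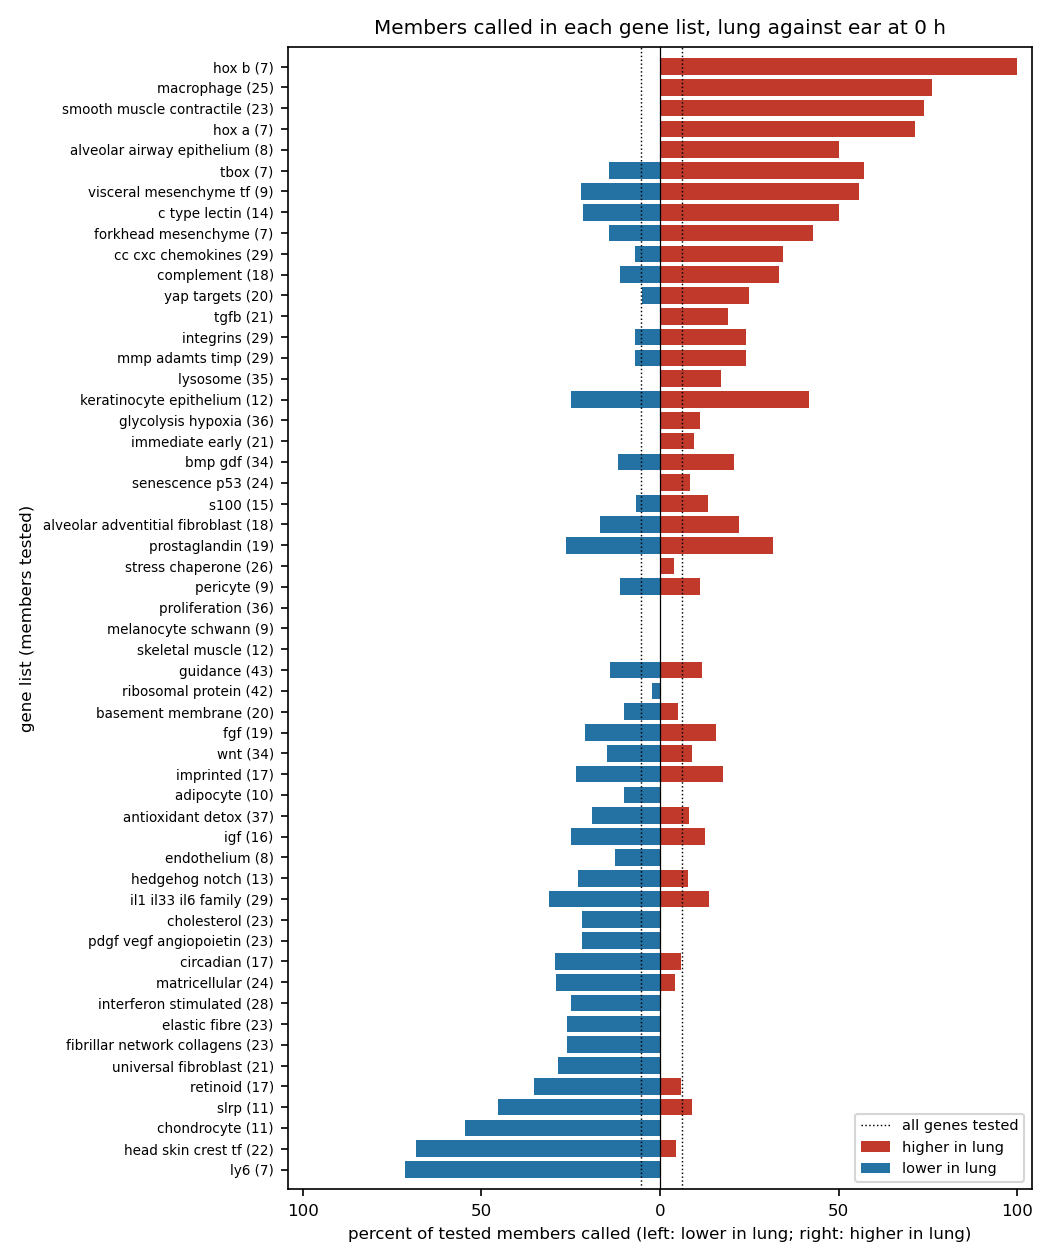
Bars give the percent of tested members of each gene list that were called higher in lung (to the right) or lower (to the left) at 0 h, with the number tested in brackets, and dotted lines mark 6.25% and 5.43%, the shares over all genes tested. Lists of 7 or more tested genes are shown, and Hoxb and macrophage genes lie at the top, Ly6 and head and skin factor genes at the bottom.

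The differences at 0 h were set beside those of the libraries taken at 12 h, which come from other libraries of the same tissues but share the fit's estimate of spread. Of the 1486 genes called at 0 h, 1478 had the same direction at 12 h, and 1190 were also called there in that direction, among 2142 (16.8%) called at 12 h. At 12 h the log2 change was -4.56 for Tbx15, 3.42 for Sema3a and -4.67 for Rpl39l. The 8 genes with opposite signs included Gata2, at -0.003 at 12 h, and Hic1, at -0.024. In limma's test of the difference between the 0 h and 12 h fold changes, 0 of 12730 genes (0%) passed and 341 had an unadjusted p under 0.05. The smallest adjusted p was that of Ccl12, a monocyte chemokine gene, at 0.0619, with 1.62 and 1.78 TPM in lung at 0 h and a listing of 0 in each ear library.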

How the data were processed

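RNA from mouse lung and ear cells labelled as fibroblasts was sequenced. The authors deposited 1 table of TPM per transcript and library, which came from kallisto 0.44.1 on GRCm38 per the submitters' processing notes. The transcript set, trimming and bias correction are not stated there. TPM keeps no read counts, so the depth per library is unknown and no counting interval or floor was computed.

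Of 61440 transcripts, 60503 matched GENCODE vM21 by Ensembl ID. The 937 others, with 0.508% to 0.590% of a library's TPM, were left out. TPM was summed over 22594 genes, and the 12730 with 1 TPM or more in at least 2 of the 5 libraries at 0 h were tested.

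A linear model of log2(TPM + 1) with 1 mean for each of 4 groups (tissue by time) was fitted to all 10 libraries with limma 3.58.1 in R 4.3.3, with eBayes and a trend of variance on level. It had 6 residual and 3.21 prior degrees of freedom. The 12 h libraries thus add to the estimate of spread. P values were two-sided, and Benjamini-Hochberg adjustment ran over all 12730 genes, with a threshold of 0.05. The script was tested on simulated data.

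The members and the 60 gene lists were chosen with earlier results of these data known. The text names the 15 genes with the largest changes in each direction at 10 TPM or more, up to 6 called members of a list in each direction and up to 3 uncalled ones of highest level, defining markers, the most abundant genes and the genes that vary most within a tissue; other names were chosen after their values were seen. Some genes that fall under this rule are not reported here. Alternatives were another pseudocount, level filters, scalings, variance settings, a replicate block and leaving out each library. Promoter windows are from RefSeq on GRCm38.p6.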

Additional observations from a re-analysis of the deposited data

Results flagged for a closer look

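Osr1, a transcription factor gene of visceral mesenchyme, was above all ear libraries in both lung libraries at 0 h and below them at 12 h. The difference between its log2 fold changes, 0 h minus 12 h, was 0.76, and it did not pass limma's test of that difference (adjusted p = 1.00).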

How the results depend on the processing

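All 1486 calls kept their direction in each alternative in which the gene was tested. The 1486 called genes (795 higher, 691 lower in lung) became 2357 (1257 and 1100) with array weights. Without 1 library the count ranged from 562 to 1150, with 343 to 692 higher and 219 to 530 lower, lowest without lung 1. The cause of these changes was not tested. For the difference between 0 h and 12 h, 0 genes were called. The count was 1 with no level filter, without the variance trend, with upper-quartile scaling and with quantile normalization, and it ranged from 0 to 22 without 1 library, highest without lung 12 h replicate 1.

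The median of leucine-rich proteoglycans was -1.39 with no level filter. Over all alternatives the collagen median lay between -1.86 and -0.61, that of general fibroblast genes between -1.92 and -0.55, of elastic fibre genes between -0.94 and -0.19, of glycolysis and hypoxia genes between 0.04 and 0.80, and of proliferation genes between -0.43 and 0.06.

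The labels do not say that replicate numbers pair the tissues. Deviations from group means correlated at -0.201 and -0.041 between lung and ear libraries of the same number, but the deviations of the 2 lung libraries mirror each other, so these values cannot show whether the numbers pair. With the replicate number as a block, 770 genes were called, 399 higher and 371 lower. Only 725 of them were among the 1486 genes called without it. Calls lost with this block are not noted gene by gene above.

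With 2 lung libraries, a lone lung library in a fit is assumed to vary like the other groups. TPM hides depth, so the precision of low values cannot be given.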
